A study of Mus musculus with 10 samples.

Results

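The granzymes, perforin and Nkg7 are the genes of the cytotoxic granule, and 10 of them were followed here in the whole uterus of mice at the age of 4 months: Gzma, Gzmb, Gzmc, Gzmd, Gzme, Gzmf, Gzmg, Gzmk, Prf1 and Nkg7. They were taken by gene symbol from the table of 29268 genes, which listed 9 of the 10. The level of Gzmk was not analysed here, and only its sequence was used. The set was chosen by its counts and FPKM in these same mice, which were lower in HSD17B1TG than in WT uteri, so the comparison of the groups below is a description of these genes and carries no test of them. RNA sequencing was done on the uteri of 5 HSD17B1TG mice and 5 wild-type (WT) mice, with 1 library per mouse. HSD17B1TG mice carry a human cDNA of HSD17B1, the enzyme that makes estradiol from estrone, under a chicken beta actin promoter with a cytomegalovirus enhancer. This promoter is active throughout the body, so the transgene was not restricted to the uterus. Both groups were on the FVB/N background and neither is labelled with any treatment. Estrous cycles are absent in the transgenic mice, per the study. Its WT uteri for histology were taken without regard to cycle phase, and the phase of the WT mice sequenced is not given. Genotype and cycle phase therefore cannot be told apart.

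Cytotoxic lymphocytes, which include natural killer (NK) cells and CD8 T cells, store perforin and granzymes in secretory granules and release them onto a target cell. Perforin forms pores in the target membrane, and the granzymes are serine proteases that enter through them. Granzyme B cleaves after aspartate and granzyme A after basic residues, whereas the mouse genes Gzmc to Gzmg lie beside Gzmb in a cluster of close relatives. The uterus holds its own NK cells, which are rich in granules and become abundant in the decidua of pregnancy.

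In the GRCm38 coordinates of the table, the 6 genes Gzme, Gzmd, Gzmg, Gzmf, Gzmc and Gzmb lay in this order on the minus strand of chromosome 14 within 144.6 kb (chr14:56117626-56262260). Gzma (chr13:113093825-113100981) is on chromosome 13, Prf1 (chr10:61297833-61304680) on chromosome 10 and Nkg7 (chr7:43437073-43438249) on chromosome 7. The coding sequences of Gzmc to Gzmg in GENCODE M21 were identical at 73.3% to 94.8% of aligned bases over the 10 pairs, and Gzmd and Gzme were the closest pair. Gzmb was identical to these 5 at 67.6% to 76.6% of aligned bases. No window of 150 bases, the length of 1 read, was shared between the transcript of a listed gene and that of another gene. At 50 bases 21.9% of the windows of Gzmd, 20.6% of those of Gzme and 19.8% of those of Gzmg also occurred in another granzyme transcript, against 7.36% for Gzmf, 4.14% for Gzmc and 0 windows for Gzma, Gzmb, Prf1 and Nkg7. The levels of Gzmd, Gzme and Gzmg are therefore uncertain to the extent that the counting moved reads among them, and the summed counts of the cluster are given beside them. Gzmf overlapped the antisense gene Gm4022, which had 2 counts over the 10 mice.

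The promoters of Gzmc to Gzmg resembled one another more than any of them resembled the promoters of the other genes of the set. Over the 300 bases from 250 before to 50 after the RefSeq start of transcription (build GRCm38.p6), the 10 pairs among these 5 were identical at 86.1% to 93.98% of aligned bases, and the remaining 35 pairs of the 10 genes at 50.5% to 61.2%. The stretch with the most shared bases is shown for the 5 genes because together they had 31 counts over the 5 HSD17B1TG mice. Capitals mark the runs of 10 or more bases found in all 5 promoters, and all 5 stretches are on the minus strand: Gzmc at chr14:56234629-56234770, Gzmd at chr14:56132569-56132710, Gzme at chr14:56120602-56120743, Gzmf at chr14:56211404-56211545 and Gzmg at chr14:56159571-56159712.
Gzmc: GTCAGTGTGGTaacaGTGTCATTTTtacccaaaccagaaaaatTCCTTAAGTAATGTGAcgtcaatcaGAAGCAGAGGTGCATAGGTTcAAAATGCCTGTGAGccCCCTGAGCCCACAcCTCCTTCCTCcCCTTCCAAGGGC
Gzmd: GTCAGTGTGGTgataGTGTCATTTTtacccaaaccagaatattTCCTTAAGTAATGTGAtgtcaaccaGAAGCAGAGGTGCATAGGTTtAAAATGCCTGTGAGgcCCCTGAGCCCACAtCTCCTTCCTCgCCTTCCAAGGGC
Gzme: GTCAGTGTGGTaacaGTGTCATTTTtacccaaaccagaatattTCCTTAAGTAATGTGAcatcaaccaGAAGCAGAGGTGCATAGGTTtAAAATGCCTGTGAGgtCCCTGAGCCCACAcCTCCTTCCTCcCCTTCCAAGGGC
Gzmf: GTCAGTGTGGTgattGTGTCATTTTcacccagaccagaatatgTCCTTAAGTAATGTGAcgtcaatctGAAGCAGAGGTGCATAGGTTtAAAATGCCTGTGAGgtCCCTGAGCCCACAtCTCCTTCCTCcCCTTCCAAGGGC
Gzmg: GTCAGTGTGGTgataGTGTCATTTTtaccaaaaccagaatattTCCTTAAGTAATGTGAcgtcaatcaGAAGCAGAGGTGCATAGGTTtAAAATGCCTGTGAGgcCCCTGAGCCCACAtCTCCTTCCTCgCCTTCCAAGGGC

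Of the 142 bases in each stretch, 106 lay in the shared runs. The run of 20 bases, the run of 16 bases and the run of 14 bases occurred in 5 of the 32851 RefSeq promoters, those shown here. The first run holds the letters TGTGGT, which Runx factors bind. On either strand these letters were in the promoters of 9 of the 10 genes, the exception being Gzmk, and in 16.8% of all promoters. The letters AGGTGT of T-box factors such as Eomes and T-bet were in 6 of the 10 (Gzma, Gzmc, Gzme, Gzmk, Prf1 and Nkg7) and in 13.7% of all promoters. Prf1 and Nkg7 are shown around this match, which is in capitals, on the plus strand at chr10:61297788-61297841 and chr7:43437100-43437153.
Prf1: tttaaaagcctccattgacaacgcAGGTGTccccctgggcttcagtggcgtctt
Nkg7: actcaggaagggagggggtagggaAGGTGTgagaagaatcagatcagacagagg

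The AP-1 letters TGANTCA were in the promoter of Gzmb alone among the 10 genes and in 7.81% of all promoters, and the STAT letters TTCNNNGAA were in those of Gzmb and Nkg7 and in 8.30% of all promoters. The estrogen response element and the element shared by the progesterone and glucocorticoid receptors were in 0 of the 10 windows, and in 0.0700% and 0.00913% of all promoters, respectively. A match describes letters and not binding, and the related promoters of Gzmc to Gzmg are not independent cases.

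Library totals were 16544864 to 19451715 counts in the HSD17B1TG mice and 14817228 to 23271988 in the WT mice, so that a count of 0 allowed at most 0.202 CPM (counts scaled to the library total, taking 3 counts as the limit and covering counting error only). Mitochondrial genes took 1.94% to 7.57% of the counts in HSD17B1TG and 2.58% to 3.37% in WT uteri. Transcripts of the mouse Hsd17b1 gene, which the human transgene need not add to, were at 0.992 ± 0.291 FPKM (fragments per kilobase of transcript, scaled to the library total, mean ± SD, n = 5) in HSD17B1TG and 0.918 ± 0.375 FPKM in WT uteri, so the table did not check the genotype labels. Markers of the uterine compartments were present in the libraries of both groups, but at uneven levels. Over the 10 mice, the stromal gene Hoxa10 spanned 21.7 to 210.2 FPKM, the epithelial gene Krt8 82.0 to 676.0 FPKM and the smooth muscle gene Myh11 29.8 to 947.9 FPKM, with the highest Myh11 in HSD17B1TG mouse 1 and WT mouse 4.

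All 9 listed genes had a lower mean level in HSD17B1TG than in WT uteri. The 9 genes together had 16 to 148 counts per mouse in the HSD17B1TG group and 347 to 2634 in the WT group, or 339 against 7123 counts over 5 mice each. The filter on low counts was passed by 6 genes (Gzma, Gzmb, Gzmc, Gzmd, Prf1 and Nkg7), and they passed through the WT mice, in which they were high. Called lower, which means an adjusted p under 0.05 in edgeR, a fold change above 2 and a mean above 1 FPKM in either group, were 5 of these 6, all but Gzma. Over all 16993 genes tested, 2.08% were called lower and 4.24% in either direction. In 5 of the 9 listed genes (Gzmb, Gzmc, Gzmd, Prf1 and Nkg7) every HSD17B1TG mouse was below every WT mouse in FPKM, which held for 2.65% of all genes tested and 1.82% of all genes in the table. The median log2 fold change of the 6 genes was -4.30 and that of all genes tested was 0.0021. Because this contrast chose the genes, nothing is read from these counts. In bulk tissue, fewer granule-bearing cells and less RNA per cell cannot be told apart.

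**Figure D1:**
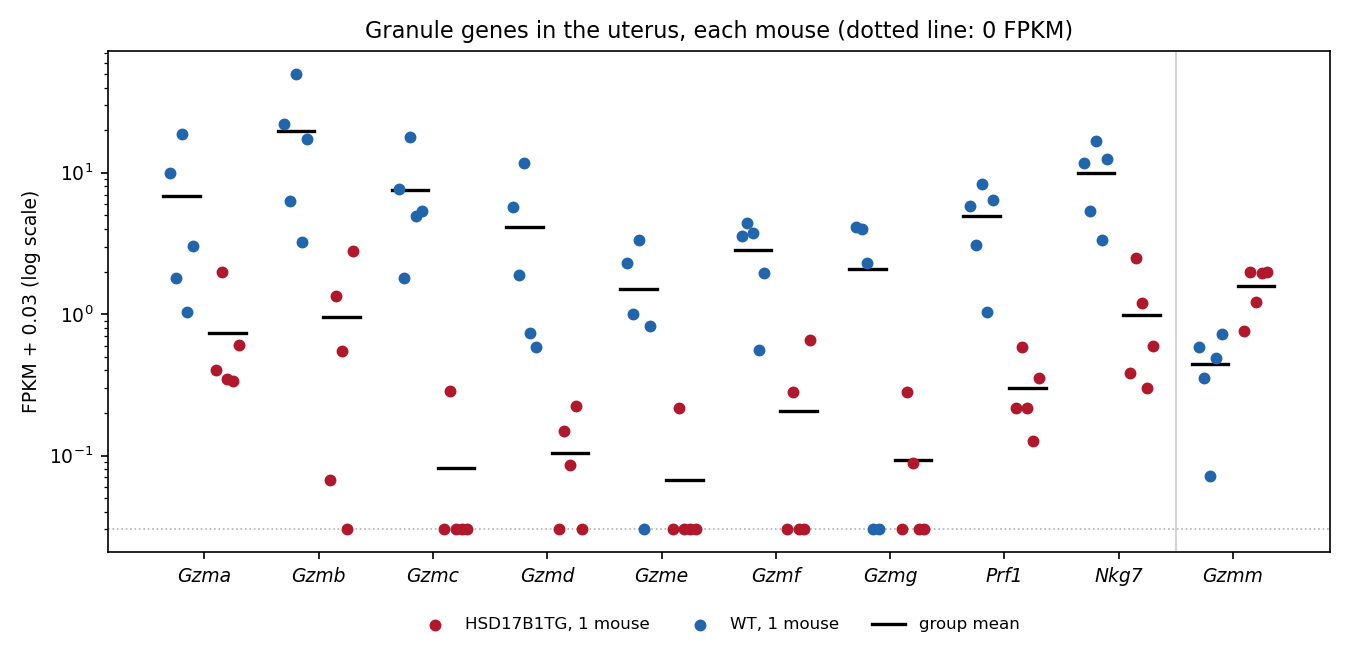
Level of the 9 listed granule genes and of Gzmm in each mouse, as FPKM + 0.03 on a log axis, with blue points for the 5 WT and red points for the 5 HSD17B1TG mice and black bars for the group means. Points on the dotted line are at 0 FPKM. The groups do not overlap for Gzmb, Gzmc, Gzmd, Prf1 and Nkg7, and for Gzmm the HSD17B1TG mice are the higher group.

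Prf1 encodes perforin, the pore-forming protein. Its levels in the WT mice 1 to 5 were 5.75, 3.04, 8.25, 1.01 and 6.39 FPKM, and those in the HSD17B1TG mice 1 to 5 were 0.187, 0.556, 0.185, 0.0960 and 0.323 FPKM. The highest HSD17B1TG mouse, mouse 2, was thus below the lowest WT mouse, mouse 4. The log2 fold change was -4.17 ± 0.64 (SE, edgeR). Across the fits that omit a single mouse it ranged from -4.62 to -3.93.

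Nkg7 encodes a small membrane protein of the granule that takes part in its release. It stood at 11.6, 5.30, 16.7, 3.34 and 12.4 FPKM in the WT mice 1 to 5 and at 0.352, 2.45, 1.16, 0.271 and 0.562 FPKM in the HSD17B1TG mice 1 to 5. The groups did not overlap, although HSD17B1TG mouse 2 came within 1 FPKM of WT mouse 4. The log2 fold change was -3.35 ± 0.67 (SE), and it ranged from -4.06 without HSD17B1TG mouse 2 to -3.10 without WT mouse 3.

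Gzmb was the most abundant granzyme in WT uteri. Its levels were 21.9, 6.27, 50.3, 3.203 and 17.3 FPKM in the WT mice 1 to 5 and 0.0374, 1.32, 0.518, 0 and 2.77 FPKM in the HSD17B1TG mice 1 to 5. Mouse 5 of the HSD17B1TG group lay just below WT mouse 4, and the WT mice themselves spanned 15.7-fold. The log2 fold change was -4.42 ± 1.14 (SE), and it was -5.39 without HSD17B1TG mouse 5 and -3.74 without WT mouse 3, the ends of its range with single mice left out.

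Gzma lies apart from the cluster, and its groups overlapped. WT mice 1 to 5 had 9.91, 1.78, 18.6, 1.01 and 3.01 FPKM, and HSD17B1TG mice 1 to 5 had 0.373, 1.94, 0.317, 0.308 and 0.575 FPKM. HSD17B1TG mouse 2 was above the WT mice 2 and 4, and the other 4 HSD17B1TG mice were below all WT mice. The log2 fold change was -3.28 ± 0.89 (SE), which was not called. Without HSD17B1TG mouse 2 the group mean was 0.393 ± 0.124 FPKM (SD, n = 4) in place of 0.703 ± 0.701 FPKM, and the fit gave -4.11. Without WT mouse 3 it gave -2.50.

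Gzmc showed the lowest fold change of the 6 genes of the set that passed the filter. The WT mice 1 to 5 had 7.64, 1.77, 17.9, 4.87 and 5.35 FPKM. Of the HSD17B1TG mice only mouse 2 had any count, 4 counts or 0.257 FPKM, and the other 4 were at 0. The fitted log2 fold change was -6.99 ± 1.03 (SE) and ranged from -9.99 without HSD17B1TG mouse 2, where its group holds no count and the value depends on the prior, to -6.40 without WT mouse 3. The ratio of its pooled CPM in WT to that in HSD17B1TG mice was 155.8 (95% exact counting interval 60.5 to 573.5). This interval covers counting error alone and not the spread between mice, and the 4 counts behind it are all of HSD17B1TG mouse 2.

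Gzmd had 5.65, 1.86, 11.8, 0.703 and 0.557 FPKM in the WT mice 1 to 5 and 0, 0.119, 0.0551, 0.193 and 0 FPKM in the HSD17B1TG mice 1 to 5. These groups did not overlap, but the HSD17B1TG values rest on 6 counts in 5 mice. The log2 fold change was -5.70 ± 1.13 (SE), and it ranged from -6.34 without HSD17B1TG mouse 4 to -4.82 without WT mouse 3.

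Gzme, Gzmf and Gzmg had too few counts for the filter, and they are given by their levels. Gzme was at 2.27, 0.977, 3.32, 0 and 0.800 FPKM in the WT mice 1 to 5, and HSD17B1TG mouse 2 was the only mouse of its group with a count (3 counts, 0.188 FPKM). The ratio of its pooled CPM in WT to that in HSD17B1TG was 42.6 (95% exact counting interval 14.3 to 209.1), which again leaves out the spread between mice and rests on the 3 counts of mouse 2.

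Gzmf was at 3.54, 4.35, 3.71, 0.527 and 1.91 FPKM in the WT mice 1 to 5. It had counts in the HSD17B1TG mice 2 and 5 (0.250 and 0.629 FPKM) and none in the other 3, so that HSD17B1TG mouse 5 exceeded WT mouse 4. Gzmg was at 4.07, 4.00 and 2.25 FPKM in the WT mice 1 to 3 and at 0 in the WT mice 4 and 5. The HSD17B1TG mice had 0.253 FPKM in mouse 2, 0.0585 FPKM in mouse 3 and 0 in the rest. In an edgeR fit without the filter, Gzme, Gzmf and Gzmg had log2 fold changes of -5.08 ± 1.28, -4.05 ± 0.99 and -4.94 ± 1.47 (SE), of which that of Gzmf was called. No count in most HSD17B1TG mice also means that these fitted values depend on the prior and are not bounds.

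Summing the 6 genes of chromosome 14 removes any exchange of reads among them. The sums were 1298, 397, 1742, 209 and 669 counts in the WT mice 1 to 5 and 1, 50, 16, 3 and 71 counts in the HSD17B1TG mice 1 to 5, without overlap. As a single feature in the same fit, the sum had a log2 fold change of -4.73 ± 1.01 (SE). For Gzmc to Gzmg alone the totals were 1602 counts over the WT and 31 over the HSD17B1TG mice.

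Leaving out single mice changed the calls. The number of genes of the set called lower was 5 with 10 mice. It was 6, 3, 4, 2 and 2 without the HSD17B1TG mice 1, 2, 3, 4 and 5, and 2, 2, 2, 8 and 3 without the WT mice 1, 2, 3, 4 and 5. The genes of the set tested were 6 with 10 mice, and 8 without any HSD17B1TG mouse or without WT mouse 4. They were 6 without any other WT mouse. Over all genes, the same fits called between 38 (without HSD17B1TG mouse 5 or WT mouse 2) and 888 (without WT mouse 4) genes higher, and between 27 (without HSD17B1TG mouse 5) and 666 (without WT mouse 4) lower. Gzmb lost its call in 8 of these 10 fits, and Gzmd and Nkg7 in 6. As the genes were chosen on this contrast, the calls that were not lost are no support for it.

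Within the WT group most granule genes shared the highest and the lowest mouse, but the full order of the mice differed between genes. WT mouse 3 had the highest level of 7 of the 9 listed genes and WT mouse 4 the lowest of 7, counting ties. These mice also differed in tissue markers. All 8 smooth muscle markers were lower in WT mouse 3 than in WT mouse 4 (summed FPKM 401 and 5664), as were 6 of 8 epithelial markers, all but Cldn4 and Foxa2 (381 and 1497). Of the 8 stromal markers 4 were higher and 4 lower (1853 and 1888). The part of tissue make-up in the order of the granule genes was not tested. Summed over the 9 genes, FPKM were 72.4, 29.3, 132.8, 14.7 and 47.7 in the WT mice 1 to 5 and 0.950, 7.34, 2.30, 0.869 and 4.86 in the HSD17B1TG mice 1 to 5. Among the HSD17B1TG mice, mouse 2 was highest for 6 of the genes. On log2 CPM over 10 mice, which share the group difference, Pearson's r for the 15 pairs of the 6 genes was 0.779 to 0.969, with a median of 0.897. After each group's mean was subtracted, r was 0.298 (Gzmb and Gzmd) to 0.861 (Prf1 and Nkg7), with a median of 0.711. The 3 lowest values were those of Gzmd with Gzmb, Nkg7 and Prf1, at 0.298, 0.405 and 0.415.

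The make-up of the granule signal also differed between mice. Gzmb was the largest part of the summed FPKM in 4 of the 5 WT mice (21.4% to 37.9%), and Gzmc was the largest in WT mouse 4 (33.2%). The 6 genes of chromosome 14 together made up 54.3% to 67.2% of the sum in WT uteri. WT mouse 2 differed from the other WT mice in its high shares of Gzmf (14.8%) and Gzmg (13.6%), which were at most 4.89% and 5.63% in the other 4. Among the HSD17B1TG mice the chromosome 14 genes made up 3.93% to 70.0%. Gzma was the largest part in mice 1 and 4, Nkg7 in mice 2 and 3, and Gzmb in mouse 5 (57.0%). These shares rest on 16 to 148 counts per mouse, and those of the WT mice on 347 to 2634.

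**Figure D2:**
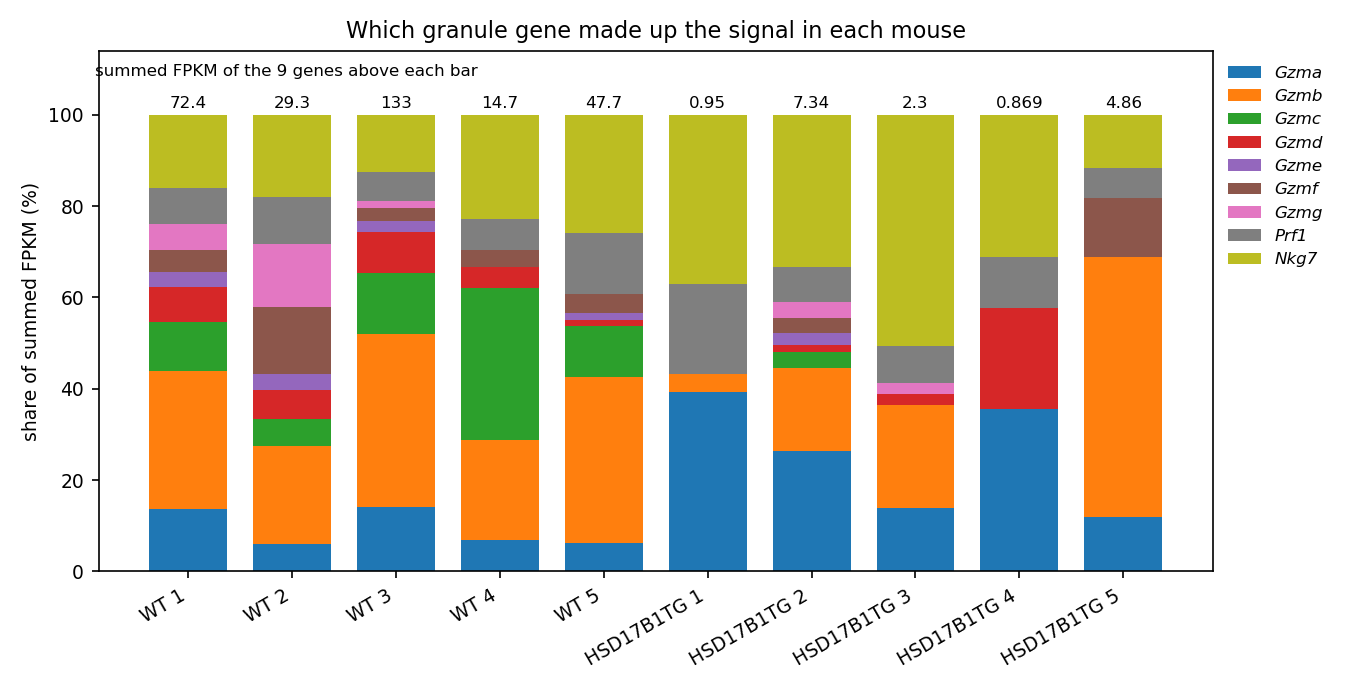
Share of each of the 9 granule genes in their summed FPKM (percent), 1 bar per mouse with the 5 WT mice at the left and the 5 HSD17B1TG mice at the right, and the summed FPKM above each bar. Gzmb is the largest part of 4 of the 5 WT bars, and the HSD17B1TG bars, from sums of 0.869 to 7.34 FPKM, differ from mouse to mouse.

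Gzmm, the one granzyme of the table outside the set, had the opposite order. It lies on chromosome 10 and encodes a granzyme that cleaves after methionine and leucine. It was at 0.553, 0.322, 0.0421, 0.461 and 0.697 FPKM in the WT mice 1 to 5 and at 0.729, 1.95, 1.19, 1.94 and 1.96 FPKM in the HSD17B1TG mice 1 to 5. Every HSD17B1TG mouse was above every WT mouse, as for 4.04% of all genes tested, by a small margin between HSD17B1TG mouse 1 and WT mouse 5. The log2 fold change was 1.88 ± 0.54 (SE), with an adjusted p of 0.0625 (edgeR quasi-likelihood test, Benjamini-Hochberg), and the 2 groups had 194 and 65 counts. Gzmm was not called here, but it was called higher by DESeq2 (adjusted p = 0.00508), by limma on log2(FPKM + 0.1) (adjusted p = 0.0464) and in 1 of the 10 edgeR fits with a mouse left out, that without HSD17B1TG mouse 1 (adjusted p = 0.0408). Over all its alternatives the adjusted p ran from 0.00508 to 0.147.

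Other genes of granule content and release changed in both directions. Of 16 tested, 1 was called lower and 3 higher, and the median log2 fold change was 0.25. With the uncalled genes included, 10 were higher and 6 lower in HSD17B1TG uteri. Over all genes, 2.08% were called lower and 2.16% higher. This list and those below were chosen with earlier results of these data known, so their counts are descriptions and not tests. Cst7, which encodes cystatin F, an inhibitor of the cathepsins that activate granzymes, fell from 2.21 ± 0.47 to 0.248 ± 0.137 FPKM (SD, n = 5 each; log2 fold change -3.13 ± 0.45 SE, adjusted p = 0.0153 in edgeR). Lower without being called were Ctsw (-2.56 ± 0.70 SE, adjusted p = 0.0543, edgeR) and Srgn (-1.37 ± 0.47 SE, adjusted p = 0.0965, edgeR). Rab27a and Stxbp2, which act in the docking and fusion of granules, rose with log2 fold changes of 1.31 and 1.01 (adjusted p = 0.0471 and 0.0486, edgeR). Vamp8, a SNARE of secretory vesicles, rose by 1.27 (adjusted p = 0.0260, edgeR). These 3 genes are also expressed in secretory epithelium. Of the 8 epithelial markers 0 were called, with a median log2 fold change of 1.24, and their summed FPKM was 587 to 2687 in HSD17B1TG and 381 to 1497 in WT mice. Their part in the 3 rises was not tested. Leaving out single mice removed the calls of Stxbp2 and Rab27a in 8 of 10 fits each and that of Vamp8 in 7. Of 7 alternatives in processing, 5 removed the call of Stxbp2, 2 that of Rab27a and 0 that of Vamp8.

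The chymase genes Mcpt4 and Cma1, which encode mast cell proteases of the granzyme locus on chromosome 14, were at similar levels in both groups. Mcpt4 was at 5.26 ± 3.34 FPKM in HSD17B1TG and 5.62 ± 6.001 FPKM in WT uteri (log2 fold change -0.09 ± 0.77 SE, adjusted p = 0.954, edgeR), and Cma1 at 5.78 ± 2.99 and 5.46 ± 5.09 FPKM (0.09 ± 0.70 SE, adjusted p = 0.953, edgeR). The standard errors of both are large, and a difference between the groups is not excluded by them.

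Among the secreted products of cytotoxic lymphocytes, 1 of 7 genes tested fell and 0 rose, against 2.08% and 2.16% of all genes called lower and higher, and the median log2 fold change was -0.94. The gene that fell was Xcl1, the chemokine lymphotactin, made by NK and CD8 T cells. It was at 18.3, 7.35, 18.1, 2.13 and 8.5 FPKM in the WT mice 1 to 5 and at 0, 0.989, 0.305, 0.119 and 0 FPKM in the HSD17B1TG mice 1 to 5, without overlap (log2 fold change -5.20 ± 0.94 SE, adjusted p = 0.0219, edgeR), and its call was lost in 4 of 10 fits with 1 mouse left out. The death ligand gene Fasl was at 0.133 ± 0.132 FPKM in HSD17B1TG and 1.08 ± 0.66 FPKM in WT uteri (log2 fold change -3.00 ± 0.79 SE, adjusted p = 0.0508, edgeR). Tnf was at 2.79 ± 2.82 and 0.641 ± 0.115 FPKM (2.11 ± 0.66 SE, adjusted p = 0.0750, edgeR). Ifng was under the filter in both groups, at no more than 0.490 FPKM in any mouse.

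Of the 11 NK cell receptor genes tested, 3 fell and 0 rose, where 2.08% of all genes were called lower, and their median log2 fold change was -2.46. As the list was chosen with earlier results known, nothing is read from this count. Klrg1, an inhibitory receptor of mature effector lymphocytes, fell from 3.73 ± 2.57 to 0.176 ± 0.161 FPKM (log2 fold change -4.36 ± 0.81 SE, adjusted p = 0.0224, edgeR). Ncr1, which encodes the activating receptor NKp46 and defines NK cells and related innate lymphocytes, fell from 6.97 ± 4.39 to 1.08 ± 0.39 FPKM (-2.70 ± 0.55 SE, adjusted p = 0.0268, edgeR). Klre1 fell from 1.06 ± 0.52 to 0.144 ± 0.123 FPKM (-2.86 ± 0.71 SE, adjusted p = 0.0429, edgeR). Klri2 passed the threshold on the adjusted p (0.0224, edgeR) but had a mean under 1 FPKM in both groups. Itga2, an integrin also found on epithelium and platelets, was the gene with a higher level in HSD17B1TG (1.497 ± 0.56 SE, adjusted p = 0.124, edgeR). Ncr1 was detected in every HSD17B1TG mouse (0.627 to 1.68 FPKM), whereas Klrg1 was at 0 in HSD17B1TG mouse 4 and Klre1 at 0 in HSD17B1TG mouse 5. Leaving out single mice removed the call of Klrg1 in 4 of 10 fits, of Ncr1 in 7 and of Klre1 in 8.

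Cd8a, which defines cytotoxic T cells, was at most 0.116 FPKM in any WT mouse and 0.148 FPKM in any HSD17B1TG mouse, and Cd3e at most 0.142 and 0.263 FPKM. Other genes of the T cell receptor complex were at higher levels. Cd3g, for example, was at 1.40 ± 0.87 FPKM in WT and 0.626 ± 0.247 FPKM in HSD17B1TG uteri (adjusted p = 0.199, edgeR). Of the 12 tested genes of the T cell receptor complex 1 fell and 0 rose (2.08% and 2.16% of all genes), and the median log2 fold change was -0.80. Trbc1, a constant segment of the beta chain, fell from 7.60 ± 3.87 to 1.89 ± 0.67 FPKM (log2 fold change -2.01 ± 0.44 SE, adjusted p = 0.0336, edgeR). Its relative Trbc2 was at 3.06 ± 1.66 FPKM in WT and 2.02 ± 1.46 FPKM in HSD17B1TG uteri and was not called (-0.61 ± 0.54 SE, adjusted p = 0.512, edgeR). Whether the counting moved reads between Trbc1 and Trbc2 was not tested. Trac, the constant segment of the alpha chain, was at 0.699 ± 0.621 FPKM in WT and 3.58 ± 2.16 FPKM in HSD17B1TG uteri (2.34 ± 0.63 SE, adjusted p = 0.0514, edgeR), the opposite order. Lck was at 3.62 ± 1.23 FPKM in WT and 1.997 ± 0.34 FPKM in HSD17B1TG uteri (-0.86 ± 0.28 SE, adjusted p = 0.0840, edgeR). The call of Trbc1 was lost in 7 of 10 fits with 1 mouse left out and in 1 of 7 alternatives of processing. Trac was called higher in 2 of the 10 fits and in 3 of the 7 alternatives.

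Interleukin 15 is the cytokine that NK cells need to mature and survive, and it is presented to them by neighbouring cells. Of 9 genes tested in this axis 2 fell and 0 rose (2.08% and 2.16% of all genes), and the median log2 fold change was -0.90. Il15 fell from 9.33 ± 6.22 to 2.56 ± 1.16 FPKM (log2 fold change -1.87 ± 0.48 SE, adjusted p = 0.0471, edgeR). Il2rb, the receptor chain shared by interleukins 15 and 2, fell from 7.18 ± 4.32 to 0.800 ± 0.648 FPKM (-3.17 ± 0.64 SE, adjusted p = 0.0260, edgeR). The common gamma chain gene Il2rg was at 3.28 ± 1.65 in WT and 1.25 ± 0.45 FPKM in HSD17B1TG uteri (-1.39 ± 0.40 SE, adjusted p = 0.0618, edgeR). The call of Il15 was lost in 8 and that of Il2rb in 6 of 10 fits with 1 mouse left out.

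Of the 11 transcription factors of cytotoxic lymphocytes tested, 5 fell and 0 rose, where 2.08% of all genes were called lower, and their median log2 fold change was -1.06. This list too was chosen with earlier results known, and nothing is read from its count. Eomes, a T-box factor of NK cells, fell from 1.33 ± 0.74 to 0.0927 ± 0.1004 FPKM (log2 fold change -3.81 ± 0.80 SE, adjusted p = 0.0292, edgeR). Prdm1, which encodes Blimp-1, fell by 2.23 on the log2 scale (adjusted p = 0.0211, edgeR), and Nfil3, a factor that NK cells need to develop, fell by 1.64 (adjusted p = 0.0305, edgeR). Ets1 and Zeb2 fell by 1.13 and 1.06 (adjusted p = 0.0445 and 0.0471, edgeR). Calls were lost in 4 of 10 fits with 1 mouse left out for Prdm1, in 6 for Eomes and Nfil3, and in 8 for Ets1 and Zeb2. In 7 alternatives of processing they were lost in 4 for Zeb2, 1 each for Ets1 and Nfil3, and 0 for Prdm1 and Eomes. Il15, Prdm1, Nfil3, Ets1 and Zeb2 are also expressed outside lymphocytes. Of the 8 stromal markers, Pdgfra, Hoxa10 and Hoxa11 fell (log2 fold changes -1.99, -2.14 and -2.36) and 0 rose, the median was -1.28, and their summed FPKM was 534 to 1977 in HSD17B1TG and 1597 to 2136 in WT mice. The part of stroma in these falls was not tested.

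**Figure D3:**
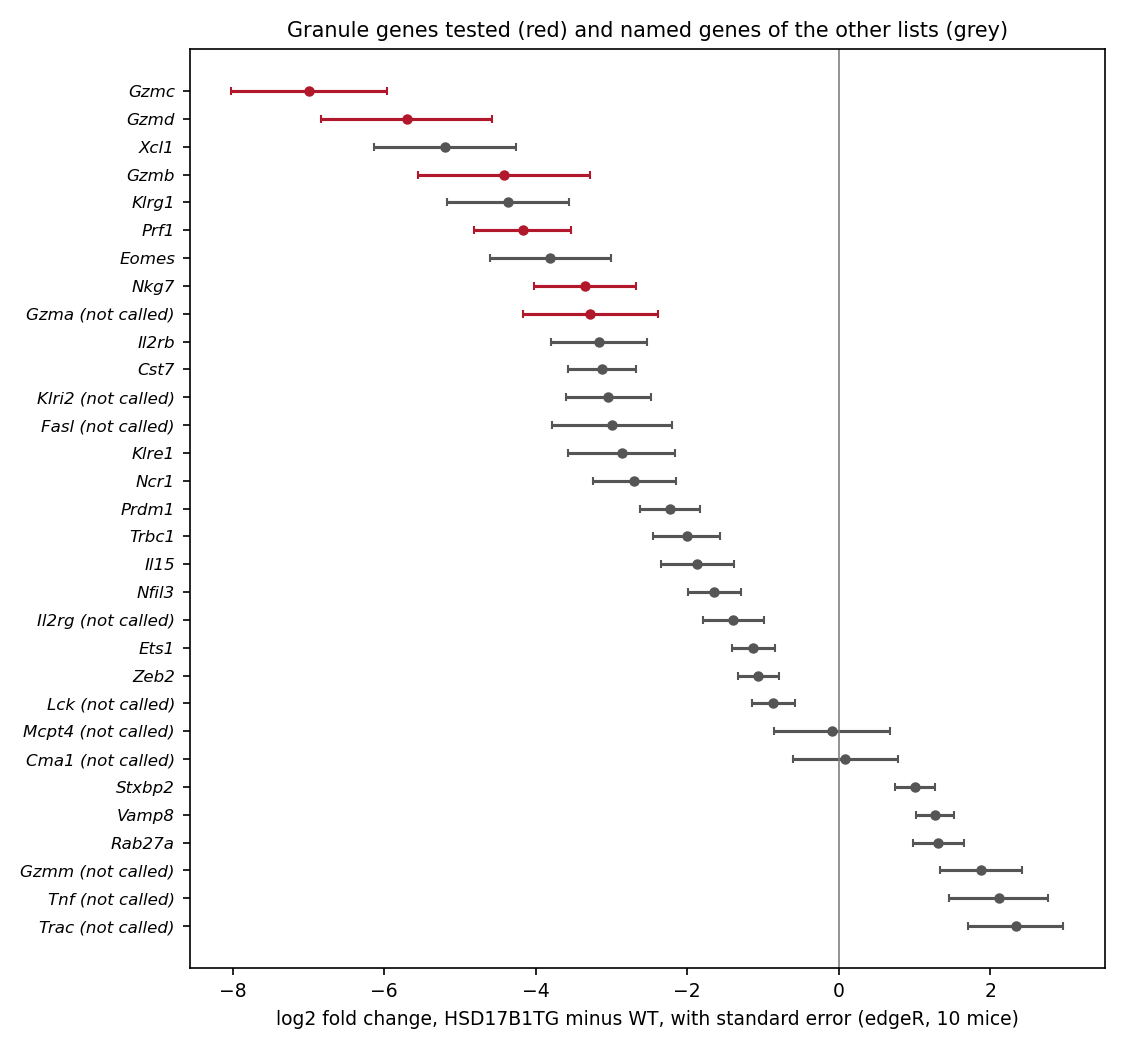
Log2 fold change (HSD17B1TG minus WT, edgeR, 10 mice) with its standard error for the 6 granule genes tested, in red, and the named genes of the other lists, in grey. Gzmc and Gzmd have the lowest values, Xcl1 and Klrg1 lie among the granule genes, and Gzmm, Tnf and Trac are on the side of higher levels without being called.

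**Figure D4:**
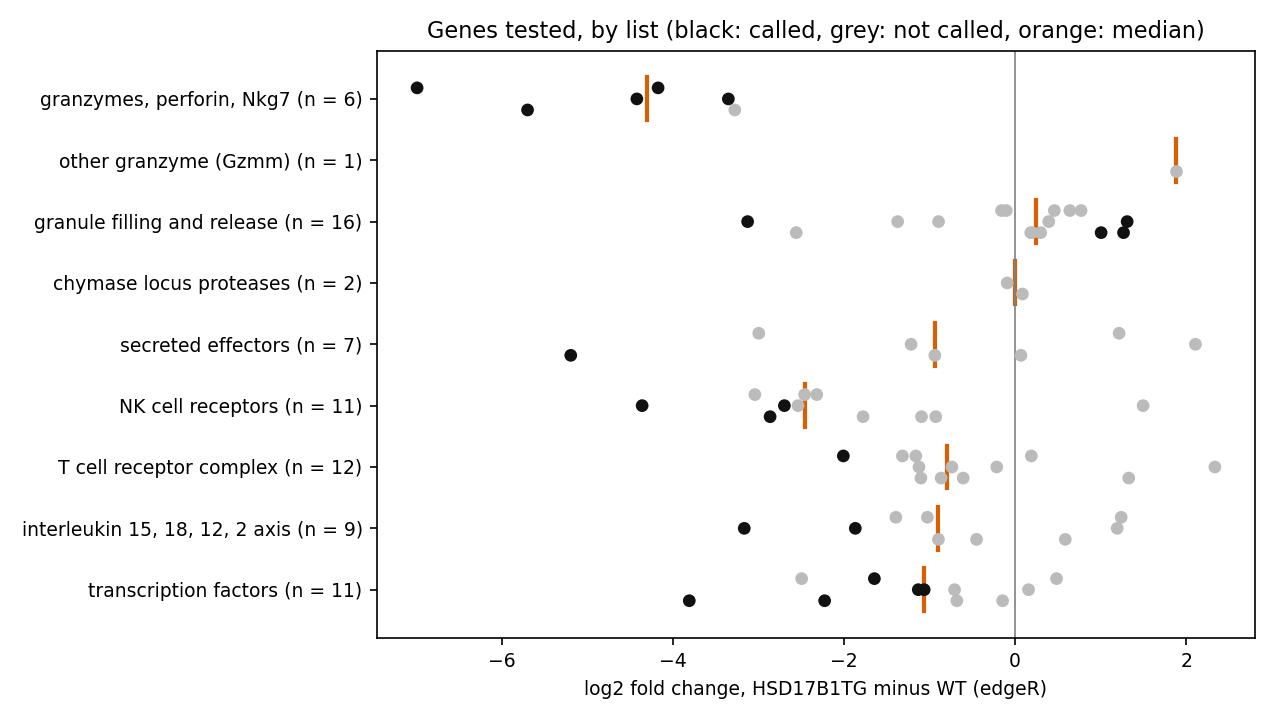
Log2 fold change (HSD17B1TG minus WT, edgeR) of every gene tested, by list, with called genes in black, the rest in grey and the median of each list in orange. The medians are -4.30 for the granule genes, -2.46 for NK cell receptors and 0.25 for granule filling and release.

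Ptprc encodes CD45, an antigen of all leucocytes. It was at 0.939 ± 0.211 FPKM in HSD17B1TG and 1.98 ± 0.79 FPKM in WT uteri (log2 fold change -1.08 ± 0.30 SE, adjusted p = 0.0558, edgeR). Of the 7 leucocyte markers 1 rose (Laptm5) and 0 fell, where 2.16% of all genes were called higher and 2.08% lower. Their median log2 fold change was -0.46, and their summed FPKM was 53.1 to 80.3 in HSD17B1TG and 44.9 to 87.0 in WT mice. When each gene's FPKM was divided by that of Ptprc in the same mouse, the groups of Gzmc, Prf1 and Nkg7 did not overlap. On this scale every HSD17B1TG mouse was below every WT mouse in 0.412% of the genes tested, and since the genes were chosen on this contrast nothing is read from it. Prf1 was at 0.134 to 0.484 times Ptprc in HSD17B1TG and at 1.13 to 3.13 times in WT mice, and Nkg7 at 0.328 to 2.13 times and 3.53 to 6.34 times. For Gzmb the groups then overlapped, with HSD17B1TG mouse 5 at 3.91 and WT mouse 4 at 3.56 times Ptprc, and those of Gzmd overlapped as well, with HSD17B1TG mouse 4 at 0.270 and WT mouse 5 at 0.198.

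**Figure D5:**
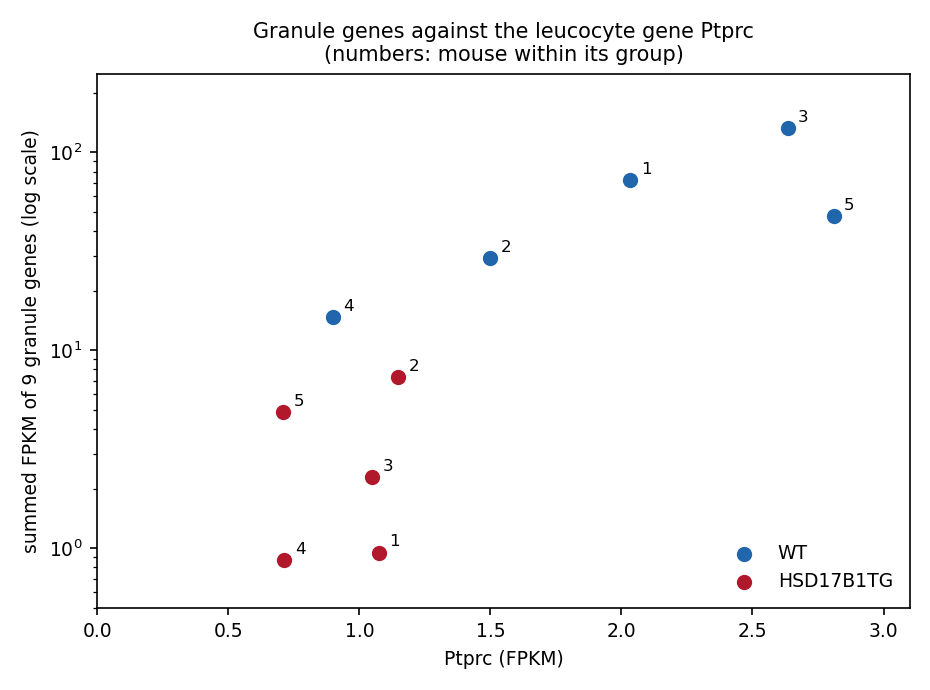
Summed FPKM of the 9 granule genes (log axis) against the FPKM of Ptprc in the same mouse, with blue points for WT and red points for HSD17B1TG mice, numbered within their group. WT mouse 4 (Ptprc 0.899 FPKM) has a granule sum of 14.7 FPKM, and the HSD17B1TG mice 1 to 3, with Ptprc at 1.05 to 1.15 FPKM, have sums of 0.950 to 7.34 FPKM.

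Among the markers of other leucocytes, calls were made in the mast cell and macrophage lists, where 4.24% of all genes were called in either direction. Of the 5 mast cell markers tested Kit and Hdc fell (log2 fold changes -1.73 and -3.50, adjusted p = 0.0294 and 0.0354, edgeR), while Cpa3, Tpsb2 and Tpsab1 had values of 0.37 to 0.54 and were not called. The summed FPKM of the list was 6.29 to 25.6 in HSD17B1TG and 19.3 to 44.6 in WT mice. Hdc made up most of the highest WT sum, with 40.5 FPKM in WT mouse 3, where Tpsb2 and Tpsab1 were at 0. Means in HSD17B1TG and WT uteri were 2.60 and 2.01 FPKM for Cpa3, 8.17 and 6.23 for Tpsb2, and 2.99 and 2.05 for Tpsab1. Of the 8 macrophage markers, Cd68 rose and 0 fell (median 0.17, summed FPKM 260 to 427 and 155 to 278). Of the 3 neutrophil markers tested, 0 were called, with a median of 2.12 and summed FPKM of 7.27 to 12.8 in HSD17B1TG and 0.601 to 4.38 in WT mice. B and plasma cell markers had 0 of 3 called and eosinophil markers 0 of 1. Of the vessel and muscle markers, 0 of 6 and 0 of 8 were called, with medians of -0.94 and 0.56. Whether any of these cells had a part in the granule gene values was not tested.

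The genes whose level most resembled the granule genes over the 10 mice were found from Pearson's r with the mean standardised log2 CPM of the 6 genes tested. They were Col22a1, a collagen (0.983), Klrg1 (0.983), Il2rb (0.974), Xcl1 (0.973) and Mfap5, a microfibril protein (0.956), and 59 genes reached 0.9. This measure rests largely on the difference between the groups. After each group's mean was subtracted the order was different. The first 4 were then Ranbp10 (0.962), Gm28286 (0.958), Arhgap9 (0.926) and Aldh2 (0.925), and 9 genes reached 0.9. How many of all genes tested would reach 0.9 over 10 mice without any relation to the set was not tested.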

How the data were processed

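Total RNA was isolated from the uterus and its mRNA was sequenced for the authors as paired-end reads of 150 bp, and per their processing notes and methods HISAT2 2.0.5 placed the reads on the mouse genome, with genes from Ensembl. The deposited table holds raw counts per gene, which were used for all tests. It also holds FPKM values computed by the authors, used for levels, and a signal in which the authors divided the counts by 1 size factor per sample, which was not used. How reads were counted, with which strand setting and with what rule for multiple matches is not given in the sources used here. The p-values, log2 fold changes and enrichment results of the authors' own comparison were not used. The labels give genotype and age, and mice are numbered within each group in accession order, as names only.

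The groups were compared on the counts with edgeR 4.0.16 in R 4.3.3 (quasi-likelihood test, TMM normalization, filterByExpr, Benjamini-Hochberg adjustment over 16993 genes). A gene was called at an adjusted p under 0.05, a fold change above 2 and a mean above 1 FPKM in either group. Alternatives were DESeq2 1.42.0, limma 3.58.1 (voom, and log2 FPKM with 1 or 0.1 added), other normalizations, no filter, and each mouse left out. The procedure was tested on simulated counts. Log2 CPM used a prior count of 2. P-values measure the spread between these mice. No libraries were duplicates.

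The genes of the set and all gene lists were chosen with earlier results of these data known. Named in the text were the 10 genes of the set, Ptprc, from each list other than markers the 3 genes tested with the smallest p and every gene called, and the 5 genes most like the set on each scale, of which 1 is not reported here. The other marker genes and Itga2, Ifng, Cd8a, Cd3e, Cd3g, Trbc2, Ctsw and Srgn were named after their values were seen. Coding sequences came from GENCODE M21 and promoters from RefSeq (GRCm38.p6), where 10 of 10 genes matched, and they were aligned with Biopython. The planned comparison of protein sequences was not run, and coding identity was chosen in its place after the files were seen. Division by Ptprc was likewise added later.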

Additional observations from a re-analysis of the deposited data

Results flagged for a closer look

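In 4 of the 18 groups checked (9 listed genes in 2 genotypes), the gap between HSD17B1TG mouse 2 and the next mouse of its group exceeded Dixon's 95% limit for 5 values. The genes were Gzma (1.94 FPKM, next mouse 0.575), Gzmg (0.253 FPKM, next mouse 0.0585), Gzmc (0.257 FPKM) and Gzme (0.188 FPKM). For Gzmc and Gzme the other 4 mice were at 0, so that any count would have passed this limit, and the 4 and 3 counts behind these values are about what a count of 0 allows in the other mice. The value of Gzmg rests on 4 counts and that of Gzma on 34. Chance flags about 1 in 20 groups, and the 4 flags are of 1 mouse and of genes that vary together, so they are not independent. In the same mouse Nkg7 (2.45 FPKM) and Prf1 (0.556 FPKM) were also the highest of the group, within the limit.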

How the results depend on the processing

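The log2 fold changes of the 9 listed genes stayed negative under every alternative that tested them. The number called lower was 5 of 6 tested, and it was 8 of 9 by DESeq2 and 3 of 6 by limma voom. With single mice left out it was 2 to 8, where 6 or 8 were tested. Of the other genes of the pathway lists (69 tested), 13 were called lower and 3 higher. With single mice left out, 1 to 19 were lower and 0 to 5 higher. Called higher were 7 by DESeq2, 1 with scaling to total counts only and 1 without a filter. With scaling to total counts the median log2 fold change of all genes was -0.17, against 0.0021, and the calls over all genes changed from 367 higher and 354 lower to 286 and 494, whereas DESeq2 called 906 and 666, and limma voom 391 and 189. With log2(FPKM + 1) the calls were 416 and 228. The median log2 fold change of the set, -4.30, was -2.22 on log2(FPKM + 1), a scale on which low genes have smaller differences by construction, and -5.07 to -3.83 with single mice left out. The summed chromosome 14 counts gave -5.50 (without HSD17B1TG mouse 5) to -4.13 (without WT mouse 3) with single mice left out, and the call was lost in 7 of 10 fits. The uncalled value of Mcpt4 changed sign to 0.26 in limma voom, 0.18 on log2(FPKM + 1) and 0.31 on log2(FPKM + 0.1), and ranged from -0.40 to 0.74 with single mice left out, and that of Cma1 was -0.049 with total counts and -0.23 to 0.77. The cause of these changes was not tested. No paired analysis was possible because the titles hold 2 numbers per mouse whose meaning is not given and which were not used. The first differs in every mouse, and the last is shared by 1 pair of mice between the groups and 2 pairs within a group. Depth limits Gzmc to Gzmg in HSD17B1TG uteri, with 31 counts in all.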
